A study of Mus musculus with 48 samples.

Results

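DNA methylation was described across 6 whole genes of the mouse amygdala, each of which the study had linked to a locus where the effect of maternal separation depended on the Tph2 genotype. The genes were Fars2, Nsun2, Xkr4, A830073O21Rik, Stx1a and Stom. All loci of the count table that overlapped the GENCODE gene body or the 10 kb on either side of it (the gene window) were taken, which gave 62 of 187695 loci. Fars2 held 20 of them, Nsun2 16, Xkr4 10, Stom 10, Stx1a 5 and A830073O21Rik 1. The locus that the study had listed for a gene lay inside the window for Fars2, Xkr4, Stx1a and Stom. For Nsun2 it lay 75.1 kb before the gene start and for A830073O21Rik 33.8 kb before it, so 58 of the 62 window loci were other loci. The listed loci were chosen on these same libraries by the contrast in which they are described here, so their values in that contrast are a description and carry no test. The question was whether the other loci of each gene followed the listed one.

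The mice were males of 4 months of age on a C57BL/6N background and carried both copies (Tph2+/+), a single copy (Tph2+/-) or no copy (Tph2-/-) of a working Tph2, which encodes the neuronal enzyme of serotonin synthesis. The null allele was constitutive, so Tph2-/- mice lacked the enzyme in all cells throughout life. Pups of each genotype were taken from the dam for 3 h per day on postnatal days 2 to 15 (maternal separation, MS) or were not (control, C), so that there were 6 groups, each of 8 mice, and each mouse gave 1 library. Fragments carrying methylated CpG were pulled down by a methyl-binding domain (MBD) protein and sequenced, so the count of a locus rises with the methylated DNA recovered there. Each library came from whole amygdala of both hemispheres, and a change in methylation within cells and a change in the mix of cell types cannot be told apart. The paper assigned whole litters to MS or control, and the labels do not say which mice were littermates. Mice of the same litter are not independent replicates of MS, so p-values measure only the spread between these libraries. Expression markers cannot be read from methylation, and the tissue label was not checked that way.

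Cytosine methylation at CpG pairs is laid down by DNA methyltransferases and read by proteins that bind methylated CpG. It is dense across gene bodies and between genes, and low at CpG-rich gene starts. Methylation of a gene start is generally linked to silencing, while methylation inside a transcribed gene body is common in active genes. Fars2 encodes the mitochondrial phenylalanyl-tRNA synthetase. Nsun2 encodes an RNA methyltransferase that places 5-methylcytosine on tRNAs and other RNAs. Xkr4 encodes an XK-related membrane protein that scrambles phospholipids of the plasma membrane in dying cells. Stx1a encodes syntaxin 1A, a SNARE protein of the presynaptic membrane that takes part in vesicle fusion. Stom encodes stomatin, a membrane protein of lipid rafts. A830073O21Rik is a transcript of unknown function that the annotation keeps in a class awaiting experimental evidence.

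The stretch of 240 bases that held the most CpG pairs in each listed locus is shown because MBD capture reads methylated CpG. All 6 are read 5′ to 3′ from the plus strand of GRCm38, with CpG pairs in capitals.
Fars2 listed locus, chr13:36365961-36366200: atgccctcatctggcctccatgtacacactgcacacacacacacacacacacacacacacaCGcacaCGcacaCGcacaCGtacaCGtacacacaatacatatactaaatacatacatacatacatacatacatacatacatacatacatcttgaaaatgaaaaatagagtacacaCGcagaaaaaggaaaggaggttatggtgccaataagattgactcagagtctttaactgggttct
Nsun2 listed locus, chr13:69457817-69458056: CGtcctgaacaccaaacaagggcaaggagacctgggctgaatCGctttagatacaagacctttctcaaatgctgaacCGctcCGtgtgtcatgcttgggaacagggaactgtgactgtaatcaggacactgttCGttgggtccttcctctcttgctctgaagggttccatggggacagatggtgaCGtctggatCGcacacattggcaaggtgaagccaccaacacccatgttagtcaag
Xkr4 listed locus, chr1:3584133-3584372: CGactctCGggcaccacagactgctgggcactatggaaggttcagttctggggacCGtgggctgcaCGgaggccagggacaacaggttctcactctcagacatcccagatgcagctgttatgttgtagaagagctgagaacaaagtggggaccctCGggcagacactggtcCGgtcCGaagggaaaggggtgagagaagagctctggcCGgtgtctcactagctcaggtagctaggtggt
A830073O21Rik listed locus, chr7:73774905-73775144: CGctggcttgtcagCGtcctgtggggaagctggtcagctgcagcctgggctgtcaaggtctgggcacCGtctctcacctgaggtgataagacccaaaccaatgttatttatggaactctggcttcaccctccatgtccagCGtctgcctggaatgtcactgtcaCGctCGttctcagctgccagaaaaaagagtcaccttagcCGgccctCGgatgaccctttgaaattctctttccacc
Stx1a listed locus, chr5:135031194-135031433: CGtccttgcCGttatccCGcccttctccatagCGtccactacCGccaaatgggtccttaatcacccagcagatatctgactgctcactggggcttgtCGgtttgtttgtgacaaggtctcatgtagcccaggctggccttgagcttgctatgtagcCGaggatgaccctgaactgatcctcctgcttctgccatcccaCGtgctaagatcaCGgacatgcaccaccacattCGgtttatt
Stom listed locus, chr2:35326462-35326701: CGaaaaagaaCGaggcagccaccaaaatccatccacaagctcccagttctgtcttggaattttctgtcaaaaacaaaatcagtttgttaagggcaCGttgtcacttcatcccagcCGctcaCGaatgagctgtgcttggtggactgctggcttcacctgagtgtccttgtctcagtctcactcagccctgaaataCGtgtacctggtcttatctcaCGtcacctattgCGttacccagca
The whole listed loci held 7 CpG pairs at Fars2, 10 at Stom, 13 at Xkr4, 14 at Nsun2, 14 at Stx1a and 15 at A830073O21Rik. The Fars2 stretch held 6 CpG pairs, most of them at the end of a run of CA repeats. Over all 187695 loci the median density was 1.82 CpG pairs per 100 bp. Of the 6 listed loci only that of Stx1a, with 2.22 per 100 bp, was above this median, and the Fars2 locus had 1.02 per 100 bp.

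Total counts ranged from 7.72 to 14.1 Mcounts per library, and the window loci together took 0.0186% of all counts. The listed loci held 3 to 80 counts in a library, so a single locus was measured with wide counting error. Differences were tested with edgeR on the whole table over 46 libraries. Replicates 3 and 7 of Tph2-/- MS, which had the smallest totals of that group, were left out, as the study left out 2 libraries of that group that the labels do not name. These 2 libraries held 6 to 14 counts at the listed loci. The sample numbers S1 to S17 and S42 to S48 were controls and S18 to S41 were MS libraries, so effects of MS and of sample order cannot be told apart. The 9 libraries S18 to S26 had the highest mean in how far log2 counts rose with CpG density, 0.118 ± 0.115 per SD of density, against means of -0.05 to -0.021 in the other runs of numbers. Not every library of that run stood apart, as the value was -0.051 in S25 and 0.039 in S23. The 2 libraries left out, S20 in that run and S36 outside it, had 0.333 and 0.117. Levels are given in CPM, that is counts per Mcounts of a library whose size was scaled by TMM (trimmed mean of M values). GE1 denotes the difference between the MS effects of Tph2+/- and Tph2+/+ mice (the first minus the second), and GE2 is the same for Tph2-/- and Tph2+/+ mice, both on the log2 scale. The same Tph2+/+ libraries enter GE1 and GE2, so the values of both are set side by side without a comparison. Loci count as called where the p before adjustment was under 0.01 and the log2 fold change exceeded 0.2 in size, which are the limits the study set.

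At the listed locus of Fars2, which lies in an intron 248 kb from the gene start (chr13:36365737-36366424), MS libraries were higher than controls in Tph2+/+ mice and lower in Tph2+/- mice. In Tph2+/+ mice the level ran from 0.577 over a median of 1.03 to 1.959 CPM in C and from 0.888 over 1.79 to 3.49 CPM in MS. Among Tph2+/- mice it ran from 1.17 over 1.49 to 2.32 CPM in C and from 0.588 over 1.16 to 1.54 CPM in MS. Among Tph2-/- mice it ran from 0.895 over 1.25 to 1.88 CPM in C and from 1.27 over 1.67 to 2.07 CPM in MS. The MS and C ranges overlapped in every genotype, with 3 of 8 Tph2+/+ MS libraries above all their controls and 4 of 8 Tph2+/- MS libraries below all of theirs. GE1 was -1.28 (SE 0.39) and GE2 was -0.41 (SE 0.39).

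The listed locus of Nsun2 (chr13:69457460-69458618) overlapped no annotated gene and lay nearest to Tent4a, 39.3 kb away. It moved like that of Fars2. In Tph2+/+ mice the level ran from 2.62 over 3.38 to 3.71 CPM in C and from 3.16 over 3.74 to 6.83 CPM in MS. The Tph2+/- mice gave 2.87 over 3.83 to 5.32 CPM in C and 1.73 over 2.92 to 4.34 CPM in MS. The Tph2-/- mice gave 2.21 over 3.14 to 4.63 CPM in C and 2.69 over 3.75 to 5.17 CPM in MS. All ranges overlapped, and 7 of 8 Tph2+/- MS libraries lay below the median of their controls. GE1 was -0.72 (SE 0.25) and GE2 was -0.13 (SE 0.25).

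At the listed locus of Xkr4, in an intron 86.8 kb from the gene start (chr1:3583857-3584649), the order was turned round. Tph2+/+ mice ran from 0.982 over 2.47 to 3.71 CPM in C and from 0.905 over 1.23 to 1.89 CPM in MS. Tph2+/- mice ran from 0.394 over 1.70 to 2.15 CPM in C and from 1.29 over 2.03 to 2.86 CPM in MS. Tph2-/- mice ran from 0.857 over 1.65 to 2.46 CPM in C and from 0.576 over 2.07 to 2.71 CPM in MS. All 8 Tph2+/+ MS libraries lay below the median of their controls, while 4 of 8 Tph2+/- MS libraries lay above all their controls, and the ranges overlapped in each genotype. GE1 was 1.33 (SE 0.37) and GE2 was 1.12 (SE 0.38), with the same Tph2+/+ libraries in both.

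The listed locus of A830073O21Rik (chr7:73774794-73775963) lay inside another gene, Fam174b. Its level in Tph2+/+ mice ran from 2.86 over 4.00 to 5.12 CPM in C and from 1.89 over 2.47 to 3.71 CPM in MS. Its level in Tph2+/- mice ran from 2.39 over 3.18 to 4.28 CPM in C and from 2.74 over 3.37 to 4.29 CPM in MS. Its level in Tph2-/- mice ran from 2.40 over 3.33 to 3.79 CPM in C and from 2.29 over 3.04 to 3.53 CPM in MS. Tph2+/+ MS mice were the low group, with 5 of 8 libraries below all their controls, and every pair of ranges overlapped. GE1 was 0.61 (SE 0.24) and GE2 was 0.46 (SE 0.25).

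The listed loci of Stx1a and Stom were chosen by GE2. That of Stx1a lies in an intron 7.52 kb from the gene start (chr5:135031000-135031630). In Tph2+/+ mice it ran from 0.593 over 1.35 to 2.29 CPM in C and from 0.821 over 2.23 to 2.90 CPM in MS, and in Tph2-/- mice from 1.23 over 1.69 to 3.27 CPM in C and from 1.11 over 1.54 to 2.50 CPM in MS. The Tph2+/- medians were 1.97 CPM in C and 1.83 CPM in MS. MS libraries were thus mostly above the control median in Tph2+/+ mice, 7 of 8, and mostly below it in Tph2-/- mice, 4 of 6, with overlapping ranges. GE2 was -0.90 (SE 0.37) and GE1 was -0.51 (SE 0.36).

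That of Stom overlaps a coding exon 9.90 kb from the gene start (chr2:35326274-35327079). In Tph2+/+ mice it ran from 1.64 over 2.45 to 3.10 CPM in C and from 0.615 over 1.55 to 2.36 CPM in MS, and in Tph2-/- mice from 1.25 over 1.58 to 2.56 CPM in C and from 1.54 over 2.57 to 2.84 CPM in MS. The Tph2+/- medians were 2.16 CPM in C and 2.35 CPM in MS. Tph2+/+ MS libraries all lay below the median of their controls and 5 of 6 Tph2-/- MS libraries above the median of theirs, again with overlapping ranges. GE2 was 0.94 (SE 0.32) and GE1 was 0.57 (SE 0.30).

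**Figure D1:**
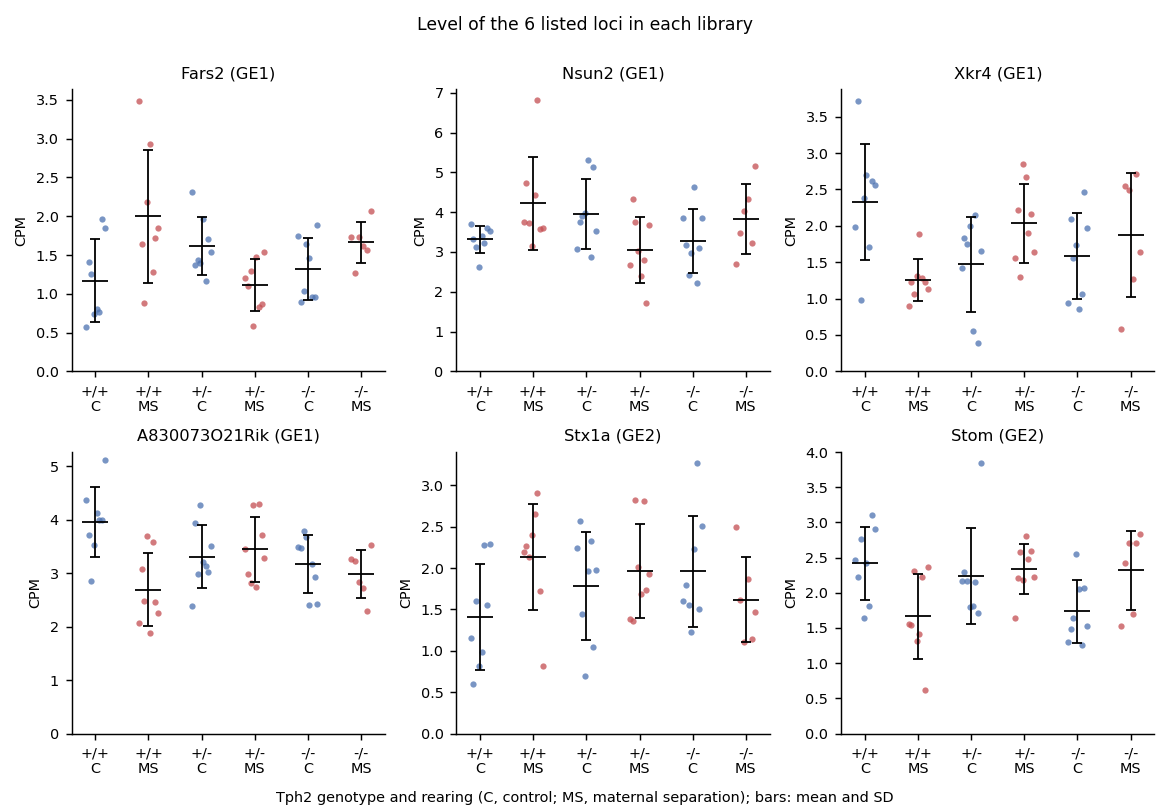
Level (CPM after TMM scaling, linear axis from 0) of the 6 listed loci in each of 46 libraries, by Tph2 genotype and rearing, with 1 point per library and bars for mean and SD. The MS and C points overlap in each genotype at all 6 loci, and the Tph2+/+ MS mice stand lowest by median at Xkr4, A830073O21Rik and Stom.

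The listing used Tph2+/+ mice and a single mutant genotype, so the mutant genotype it did not use gives a test that is independent of the choice. For Fars2, Nsun2, Xkr4 and A830073O21Rik that was MS against C in Tph2-/- mice (6 and 8 libraries), and for Stx1a and Stom in Tph2+/- mice (8 and 8). None of the 6 differences passed the test in edgeR, either adjusted over all loci or at an unadjusted p under 0.05, and 2-sided exact permutation tests gave unadjusted p-values of 0.0819 to 0.665. The differences on the log2 scale (MS minus C) with their 95% intervals were 0.33 (-0.23 to 0.90) at Fars2, 0.22 (-0.14 to 0.59) at Nsun2 and 0.24 (-0.30 to 0.78) at Xkr4. They were -0.09 (-0.45 to 0.27) at A830073O21Rik, 0.11 (-0.38 to 0.60) at Stx1a and 0.06 (-0.35 to 0.47) at Stom. In the same fit the Tph2+/+ mice, whose libraries the listing did use, gave 0.74 (SE 0.27) at Fars2, 0.36 (SE 0.17) at Nsun2, -0.88 (SE 0.26) at Xkr4, -0.55 (SE 0.17) at A830073O21Rik, 0.62 (SE 0.25) at Stx1a and -0.51 (SE 0.22) at Stom. All 6 intervals of the unused genotype held 0.

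None of the 58 other loci of the 6 windows was called in the contrast of its gene with edgeR, where 3 had an unadjusted p under 0.05. In that fit 4 of the 6 listed loci were past the limits and those of A830073O21Rik and Stx1a were not, which is given as a description only. DESeq2 with and without its fold-change prior also called 0, with 4 at an unadjusted p under 0.05 each. Over all 187695 loci the study's limits called 0.626% in GE1 and 0.558% in GE2 with edgeR, and 0% passed an adjusted p of 0.05 in either. An unadjusted p under 0.05 in edgeR was found at 3.71% of all loci in GE1 and 3.36% in GE2. In GE1 and GE2 DESeq2 called 1471 and 1318 of all loci without its prior, and 1473 and 1289 with it. The other loci had the sign of the listed locus in 26 of 58 cases, and the median size of their interaction was 0.20 on the log2 scale beside a median SE of 0.31. Each window is described in turn.

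In the Fars2 window 14 of 19 other loci had a GE1 above 0 and 5 below it, while the listed locus stood at -1.28. Over all loci 48.3% were above 0. The other loci ranged from -0.38 to 0.75 with a median of 0.14, against a median of -0.01 over all loci. The neighbours of the listed locus, 2.01 kb and 27.1 kb away and also intronic, gave 0.12 (SE 0.39) and 0.18 (SE 0.41). The 3 other loci with the smallest p all pointed the other way from the listed one. They were a coding-exon locus at 420 kb from the start (chr13:36537028-36537869) with 0.75 (SE 0.30, unadjusted p of 0.0147 in edgeR), an intronic locus at 357 kb with 0.61 (SE 0.25, unadjusted p of 0.0172 in edgeR) and an intronic locus at 451 kb with 0.59 (SE 0.41). The adjusted p in edgeR was 0.99999 for each. GENCODE ends Fars2 at chr13:36726280, while RefSeq ends it at 36537595, and 14 of the 20 loci lay in the RefSeq gene body. The locus at 451 kb lay past the RefSeq end. Counts and sums for Fars2 are those of the GENCODE gene.

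The locus at 420 kb shows that opposite order in its levels. In Tph2+/+ mice it ran from 1.72 over 2.66 to 3.92 CPM in C and from 1.11 over 1.74 to 2.87 CPM in MS. In Tph2+/- mice it ran from 1.44 over 1.958 to 2.69 CPM in C and from 1.57 over 2.19 to 2.94 CPM in MS. Where the listed locus was higher in Tph2+/+ MS mice than in their controls, this locus was lower, with ranges that overlapped. The locus at 357 kb was the poorest in CpG of the window, with 2 pairs in 1128 bp, so its capture rested on few sites. The locus nearest the gene start lay 44.03 kb inside it and gave 0.46 (SE 0.42).

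The Nsun2 window needs a word on the annotation as well. GENCODE starts the gene at chr13:69533746, while RefSeq starts it at 69612016, and 2 of the 16 loci lay in the RefSeq gene body. Of the 16 loci 11 overlapped Srd5a1, the gene of steroid 5-alpha-reductase, so they cannot be assigned to Nsun2 alone. In GE1 8 were above 0 and 8 below it, with a median of 0.01 and a range of -0.44 to 0.85. The window locus nearest to the listed one, 86.9 kb from it and 11.8 kb inside the gene (chr13:69545552-69546342), had the smallest p and the opposite sign, with 0.85 (SE 0.34, unadjusted p of 0.0141 in edgeR). It was also the locus nearest the gene start. Its median was 1.79 CPM (C) and 1.42 CPM (MS) among Tph2+/+ mice and 1.505 CPM (C) and 1.91 CPM (MS) among Tph2+/- mice, with overlapping ranges. The next by p were the loci at 56.0 kb with 0.38 (SE 0.28) and, inside the RefSeq body over a coding exon, at 85.4 kb with -0.43 (SE 0.38).

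All 10 loci of the Xkr4 window were intronic. The 9 other loci were split 4 to 5 in GE1, between -0.30 and 0.39 with a median of -0.06, below the listed 1.33. The neighbours of the listed locus, 26.7 kb and 37.4 kb away, gave -0.06 (SE 0.33) and 0.30 (SE 0.38). The locus at 37.4 kb was also the one nearest the gene start, 48.8 kb from it. The locus with the smallest p, at 395 kb, was the most abundant with 15.3 CPM and gave -0.30 (SE 0.16, unadjusted p of 0.0698 in edgeR). With its neighbours at 391 kb (0.06, SE 0.33) and 392 kb (-0.29, SE 0.30) it was 97.7 to 100% repeat-masked, where short reads can map to several copies. The other loci gave -0.30 (SE 0.29) at 369 kb, -0.16 (SE 0.25) at 326 kb, 0.39 (SE 0.41) at 248 kb and 0.07 (SE 0.22) at 138 kb. None had a GE1 past 0.4 in size.

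The single window locus of A830073O21Rik lay upstream at -8.46 kb from the gene start, inside Fam174b like the listed one and 24.1 kb from that (chr7:73749484-73750739). It gave a GE1 of -0.29 (SE 0.29), opposite in sign to the 0.61 of the listed locus. Its level ran from 2.29 over 3.09 to 4.04 CPM in Tph2+/+ C and from 0.799 over 2.94 to 3.90 CPM in Tph2+/+ MS. In Tph2+/- mice it ran from 2.47 over 3.57 to 5.49 CPM in C and from 1.51 over 2.70 to 4.41 CPM in MS. MS libraries were lower by median in both genotypes and the ranges overlapped.

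In the Stx1a window 3 of the 4 other loci had the sign of the listed locus in GE2, which was -0.90. They all overlapped coding exons. In order from the gene start they gave -0.18 (SE 0.28) at 13.2 kb, -0.33 (SE 0.31) at 18.05 kb, -0.57 (SE 0.40) at 22.1 kb and 0.00 (SE 0.33) at 25.1 kb. The median was -0.25, beside 0.01 over all loci. The smallest unadjusted p, at 22.1 kb, was 0.152 in edgeR. That locus had medians of 1.09 CPM (C) and 1.32 CPM (MS) among Tph2+/+ mice and of 1.77 CPM (C) and 1.48 CPM (MS) among Tph2-/- mice, with overlapping ranges. With SEs of 0.28 to 0.40, the values of the 4 loci neither show nor exclude that they followed the listed one.

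In the Stom window 6 of 9 other loci were above 0 in GE2 as the listed locus was, with a median of 0.03. The neighbours of the listed locus gave 0.03 (SE 0.26) at 2.07 kb and 0.25 (SE 0.19) at 11.9 kb, the latter being the locus nearest the gene start, 2.04 kb before it. The remaining loci inside the gene gave 0.09 (SE 0.25), -0.04 (SE 0.22), -0.27 (SE 0.30) and 0.01 (SE 0.20) at 14.5, 15.96, 17.8 and 19.1 kb from the start. The 2 loci past the end of the gene, which overlapped Gsn, the gene of the actin-severing protein gelsolin, gave -0.05 (SE 0.24) and 0.06 (SE 0.29). The upstream locus at -6.92 kb from the gene start gave 0.32 (SE 0.21) and had the smallest unadjusted p in edgeR, 0.135.

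The Stom locus at -6.92 kb (chr2:35343898-35345569) was the only one of the 58 other loci called in either interaction with edgeR, and this was in GE1, the contrast that had not been used for Stom. Its GE1 was 0.65 (SE 0.21, unadjusted p of 0.00227 and adjusted p of 0.99999 in edgeR). Levels ran from 4.50 over 6.25 to 7.18 CPM in Tph2+/+ C and from 2.95 over 5.18 to 6.33 CPM in Tph2+/+ MS. Levels in Tph2+/- mice ran from 3.94 over 4.83 to 6.59 CPM in C and from 4.49 over 6.39 to 7.78 CPM in MS. MS was thus lower by median in Tph2+/+ mice and higher in Tph2+/- mice, and the ranges overlapped in both. With 1 of 58 called (1.72%) beside 0.626% of all loci, the count is that of a single locus.

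**Figure D2:**
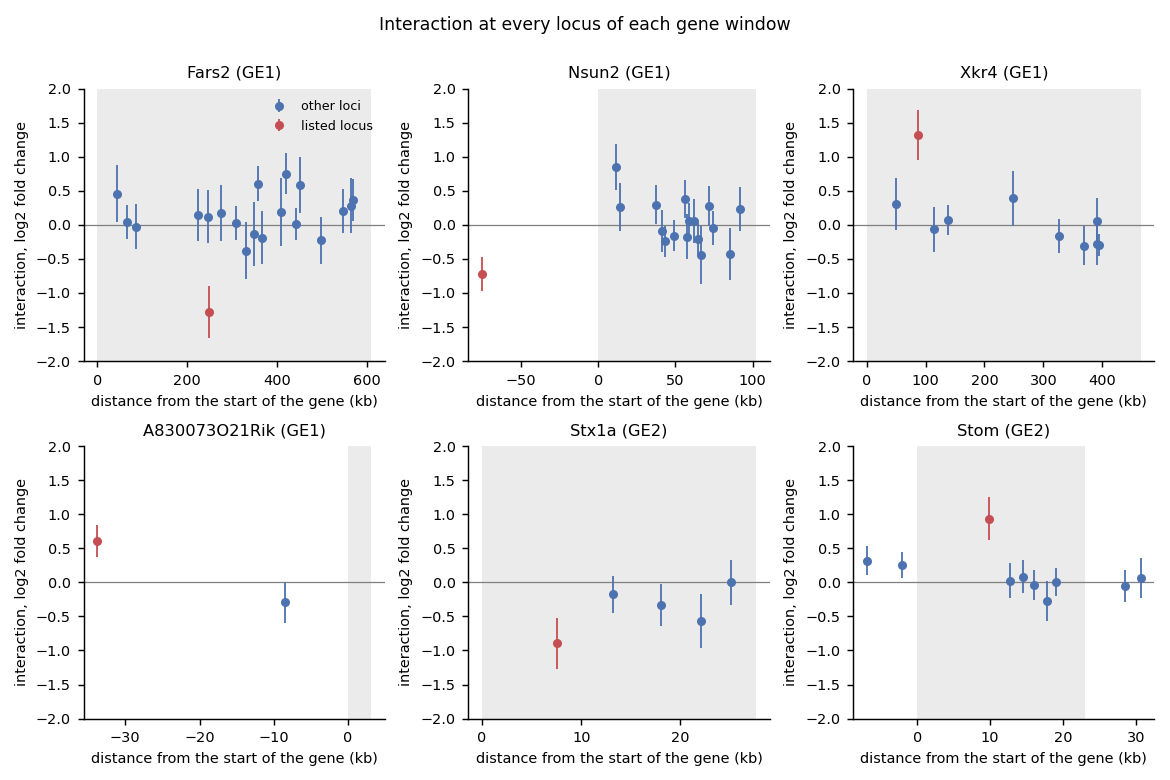
Interaction (log2 fold change, GE1 or GE2 as named above each panel) at every locus of the 6 windows and at the listed loci, against the distance of the locus from the gene start in kb. Bars are 1 SE, grey marks the gene body, red the listed locus and blue the other loci, which lie between -0.57 and 0.85.

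The counts of the other loci were summed over each window, and all 43177 gene windows with loci were fitted together. The 6 sums lay between -0.29 and 0.16 in the contrast of their gene. A sum stands for the captured loci rather than for the whole gene. At Xkr4 the locus at 395 kb, 97.7% repeat-masked, held a mean of 166 of the 430 counts. At Nsun2 11 of the 16 loci overlapped Srd5a1. The study's limits called 0.496% of gene windows in GE1 and 0.424% in GE2, and 0 of the 6 windows in the contrast of their gene (edgeR), of which 1, Fars2, had an unadjusted p under 0.05. The Fars2 sum held a mean of 445 counts per library and gave a GE1 of 0.16 (95% interval 0.01 to 0.32, unadjusted p of 0.0450 and adjusted p of 0.9996 in edgeR), opposite in sign to the listed locus. The Nsun2 sum gave 0.02 (-0.16 to 0.20), the Xkr4 sum -0.12 (-0.31 to 0.06) and the A830073O21Rik sum -0.29 (-0.92 to 0.33). For GE2 the Stx1a sum gave -0.27 (-0.60 to 0.06) and the Stom sum 0.05 (-0.13 to 0.23). In each of the 6 the value of the listed locus lay outside the 95% interval of the rest of its window. This is given without a test, since selection for size by itself favours such an outcome. The listed values also carry their own SE of 0.24 to 0.39, which is left out here. It is therefore not shown that the listed loci differed from their windows.

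By group, the summed level of the other Fars2 loci was 43.05 ± 2.32 CPM in Tph2+/+ C and 39.5 ± 3.15 CPM in Tph2+/+ MS (SD, n = 8 each). It was 40.98 ± 2.51 CPM in Tph2+/- C and 42.1 ± 2.18 CPM in Tph2+/- MS (SD, n = 8 each). The Tph2+/+ MS mean was the lowest of the 6 groups, and Tph2+/+ MS replicate 7 stood below the rest of its group at 32.4 CPM. Stx1a was highest in Tph2+/+ MS with 9.81 ± 1.47 CPM, against 8.52 ± 1.34 CPM in Tph2+/+ C (SD, n = 8 each). The 6 group means ran from 42.4 to 43.5 CPM at Nsun2, from 38.3 to 42.1 CPM at Xkr4 and from 40.2 to 43.8 CPM at Stom.

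**Figure D3:**
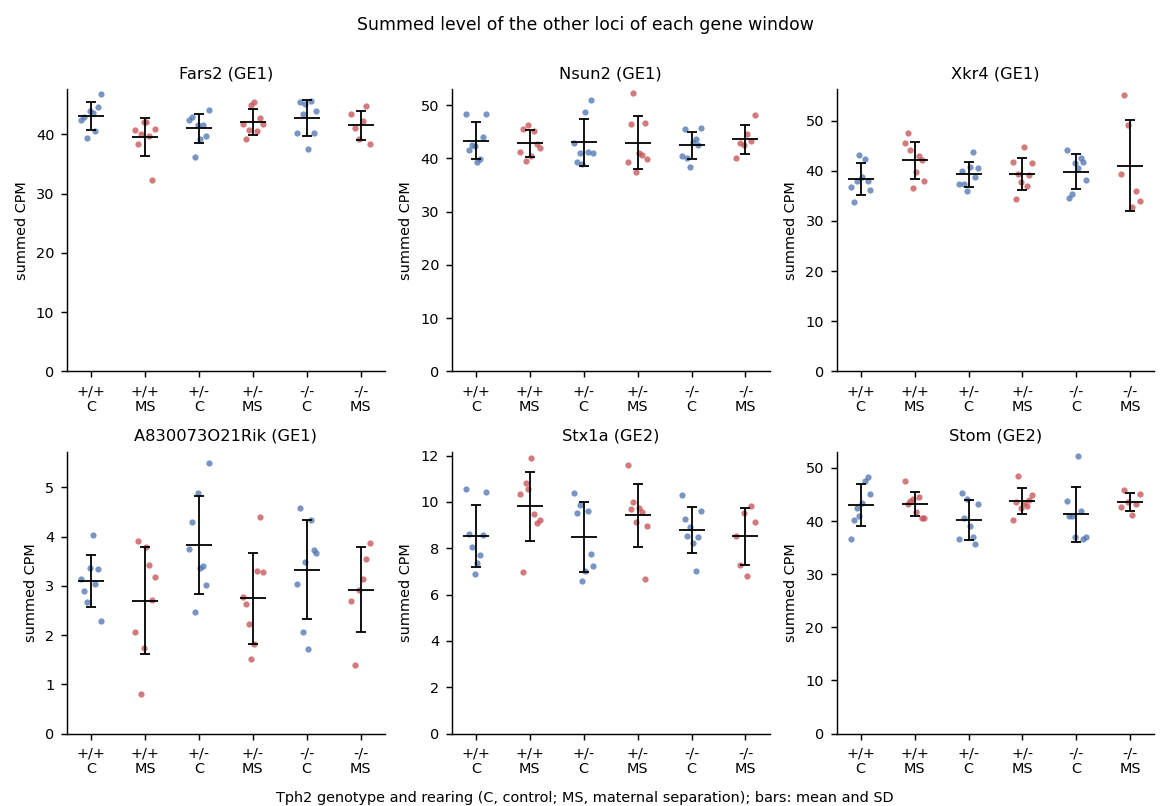
Summed level (CPM after TMM scaling, linear axis from 0) of the other loci of each gene window, without the listed locus, in each of 46 libraries by Tph2 genotype and rearing, with bars for mean and SD. The group means of Fars2 lie between 39.5 and 43.05 CPM, and MS and C overlap in every genotype and gene.

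Within groups, libraries with a high measured level at a listed locus were not generally high over the rest of the window. The listed loci held 3 to 80 counts in a library, and such counting error lowers any r. A low r here therefore cannot show that a listed locus moved apart from its window. Over 46 libraries, as deviations from the group mean of log2 level, 6 correlations of the listed locus with the summed other loci were computed and tested by 100000 permutations (2-sided). Pearson's r was 0.37 at Nsun2 (permutation p of 0.0123, 0.0738 adjusted over the 6 correlations) with Spearman's rho of 0.32 (permutation p of 0.0278, 0.167 adjusted). Without the 2 libraries farthest from the median of the summed level it was 0.28. Within the runs of sample numbers it was 0.40 for S1 to S17 (n = 17) and 0.88 for S18 to S26 (n = 8), then 0.12 for S27 to S41 (n = 14) and 0.63 for the last run, S42 to S48 (n = 7).

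The other 5 listed loci gave an r of 0.06 at Fars2, -0.01 at Xkr4, 0.08 at A830073O21Rik, 0.12 at Stx1a and 0.20 at Stom, with permutation p-values of 0.172 to 0.931 and a rho of 0.10, -0.10, 0.13, 0.10 and 0.23 (permutation p of 0.128 to 0.524). None of the 6 passed after adjustment. At Xkr4 the summed other loci moved with the CpG slope of the library (how far its log2 counts rise for each SD of CpG density) with an r of 0.71 (permutation p of 1e-05, the smallest that 100000 permutations can give, and 6e-05 adjusted over 6 such correlations) and a rho of 0.64 (permutation p of 2e-05). This r was 0.65 without the 2 libraries of the most extreme slope and 0.41, 0.80, 0.63 and 0.75 within the 4 runs of sample numbers. The listed Xkr4 locus gave -0.06 with the same slope. The slope was fitted on counts across the table, these loci included. These p-values thus carry no independent support. With the slope, the sums gave an r of -0.17 at Fars2, -0.26 at Nsun2, 0.12 at Stx1a and -0.07 at Stom (permutation p of 0.0853 to 0.649). The loci of the Stx1a window held 2.09 to 3.02 CpG pairs per 100 bp, so a window rich in CpG did not always rise with the slope. The part of CpG density in these values was not tested. The Xkr4 loci at 395 kb and 138 kb, with 15.3 and 8.84 CPM, held 2.87 and 3.08 CpG pairs per 100 bp. The listed Xkr4 locus held 1.64 and the A830073O21Rik window locus 1.19, beside a median of 1.82 over all loci. The single window locus of A830073O21Rik gave an r of -0.36 with the slope (permutation p of 0.0136, 0.0407 adjusted over the 6) and a rho of -0.34 (permutation p of 0.0212), and -0.30 without those 2 libraries. Within the runs it gave -0.07, -0.32, -0.38 and 0.39, so its direction did not hold in S42 to S48.

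**Figure D4:**
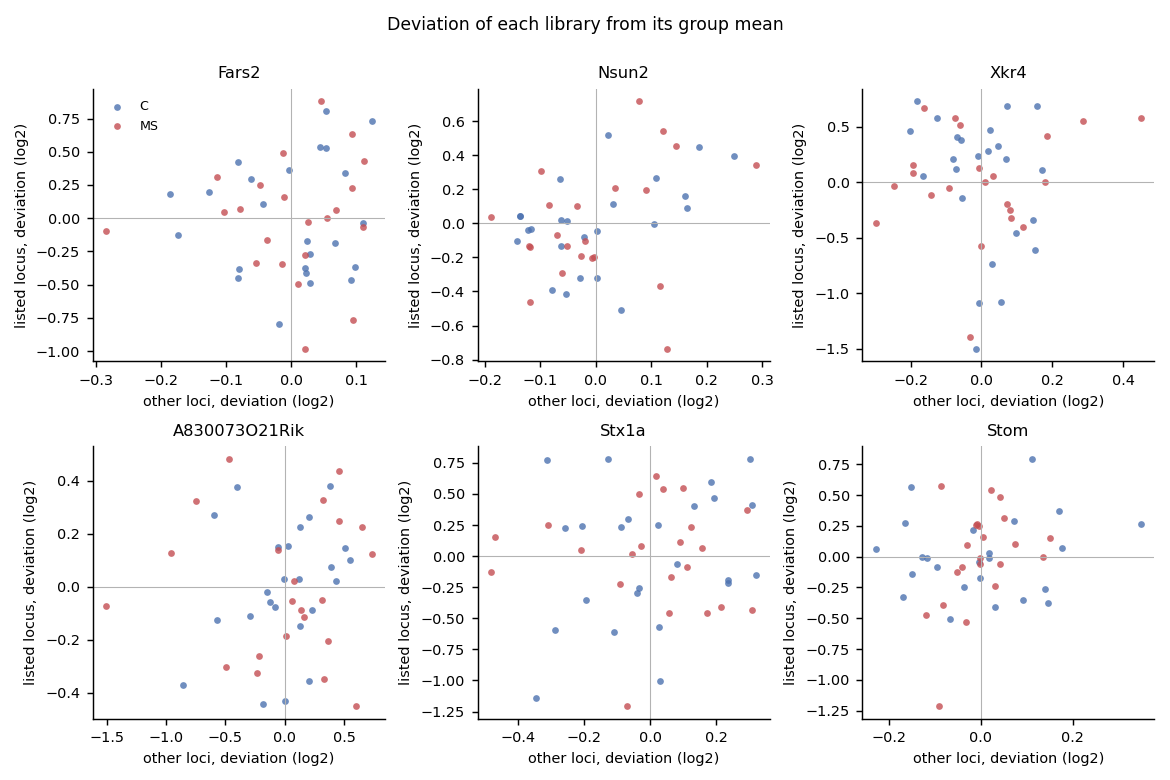
Deviation of each of 46 libraries from its group mean (log2 level) at the listed locus, on the vertical axis, against that of the summed other loci of the window, on the horizontal axis, with C in blue and MS in red. The points form a loose rising cloud at Nsun2 (r of 0.37) and no line at the other 5 genes (r of -0.01 to 0.20).

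The loci whose level was most like that of each listed locus over the 46 libraries are named next. By Pearson's r of log2 level, given as a description since all points share library depth and the groups, the most similar locus elsewhere reached 0.63 for Fars2 (nearest gene Gm29065, 44227 bp away), 0.64 for Nsun2 (Gm47425, 36269 bp away) and 0.63 for Xkr4 (Aars2, a mitochondrial tRNA synthetase gene, 7696 bp away). It was 0.59 for A830073O21Rik (inside Prdm16), 0.62 for Stx1a (Lpar3, 6340 bp away) and 0.64 for Stom (inside Tepp). The second loci were inside Tnfaip2 for Fars2 (0.56), inside Gm11033 for Nsun2 (0.61), inside Vwf for Xkr4 (0.62), near Olfr58 for A830073O21Rik (0.58), inside Uhrf1bp1l for Stx1a (0.58) and inside Fry for Stom (0.61). These were the highest of 187695 loci, whereas a window held 1 to 19 other loci, and the highest of many values is larger for that reason alone, so the values elsewhere and in the own window are not compared. In the own window the most similar locus reached 0.27 at Fars2, 0.30 at Nsun2, 0.27 at Xkr4, 0.16 at A830073O21Rik, 0.42 at Stx1a and 0.43 at Stom. At Stom it was the upstream locus called in GE1, and at Stx1a the coding-exon locus at 18.05 kb.

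Outside the interactions, MS over all genotypes called 2 of the 58 other loci (3.45%), both lower in MS and both in Fars2 introns, beside 3.63% of all loci. The first of these, nearest the gene start at 44.03 kb (chr13:36161446-36161906), fell by 0.51 on the log2 scale (SE 0.18, adjusted p of 0.217 in edgeR). It lies where an antisense transcript, Gm48765, is annotated. Its median was 1.68 CPM in Tph2+/+ C and 0.852 CPM in Tph2+/+ MS, 1.92 and 1.18 CPM in Tph2+/- mice, and 1.56 and 1.25 CPM in Tph2-/- mice. The second, at 348 kb (chr13:36465248-36465888), fell by 0.63 (SE 0.19, adjusted p of 0.171 in edgeR), with medians of 1.501 and 0.876 CPM in Tph2+/+ C and MS, 1.75 and 0.945 CPM in Tph2+/- mice and 1.25 and 1.14 CPM in Tph2-/- mice. MS was the lower group by median in all 3 genotypes at both. Without S18 to S26, the run with the highest mean rise with CpG density, the differences were -0.44 (SE 0.20) and -0.41 (SE 0.20) and neither was called. The part of these libraries in the result was not tested further.

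Within genotypes, MS in Tph2+/+ mice called 2 of 58 (3.45%, beside 1.31% of all loci), the Fars2 loci at 44.03 kb with -0.89 (SE 0.31) and at 420 kb with -0.62 (SE 0.21). Without S18 to S26 neither was called, at -0.76 (SE 0.35) and -0.64 (SE 0.25). MS in Tph2+/- mice called 1 of 58 (beside 0.779%), the Fars2 locus at 348 kb with -0.93 (SE 0.32, adjusted p of 0.9997 in edgeR). With the CpG slope of each library as a covariate it was -0.79 (SE 0.31) and not called. MS in Tph2-/- mice called 0 of 58 with edgeR, beside 1.48% of all loci. At an unadjusted p under 0.05 there was 1 of 58 in edgeR, beside 7.11% of all loci. DESeq2 with or without its prior also gave 1 of 58 at that p.

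Genotype called few loci as well. Tph2-/- against Tph2+/+ called 3 of 58 (5.17%, beside 0.748% of all loci). These were the Fars2 locus at 66.7 kb with 0.34 (SE 0.13), the Nsun2 locus at 74.4 kb, inside Srd5a1, with -0.41 (SE 0.13) and the last locus of Stx1a at 25.1 kb with -0.51 (SE 0.18), and the adjusted p in edgeR was 0.9999 for each. The Stx1a locus (chr5:135048576-135049325), over a coding exon, had medians of 2.01 and 1.92 CPM in Tph2+/+ C and MS and of 1.11 and 1.34 CPM in Tph2-/- C and MS. Both Tph2-/- groups were lower there, with ranges that overlapped those of the Tph2+/+ groups. Without S18 to S26 this call was kept, and the other 2 were not called although their differences were of about the same size, 0.36 (SE 0.15) at Fars2 and -0.40 (SE 0.15) at Nsun2. That setting took out replicates 1, 2 and 4 of Tph2-/- MS, 1, 2 and 3 of Tph2+/+ MS and 1 and 2 of Tph2+/- MS. Fewer libraries then carried these contrasts, which by itself makes a call harder to reach. Tph2+/- against Tph2+/+ called 1 of 58 (beside 0.546%), the Stom locus at 12.8 kb next to the listed one, with -0.40 (SE 0.13), and it was not called without S18 to S26 (-0.25, SE 0.14).

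Related genes were described from lists that were not picked by how these windows moved. Over all loci, 0.626% in GE1 and 0.558% in GE2 were called, and 3.71% and 3.36% had an unadjusted p under 0.05 in edgeR. Of 16 further mitochondrial aminoacyl-tRNA synthetases, which charge tRNAs for mitochondrial protein synthesis as Fars2 does, 14 had loci, and 0 of their 86 loci were called in GE1 or GE2 with edgeR, with 2 and 4 at an unadjusted p under 0.05. Of 7 further RNA cytosine methyltransferases all had loci, and 0 of 41 were called, with 0 and 1 at that p. For the XK-related proteins 0 of 41 loci in 6 of 7 genes were called, with 0 and 1 at that p, and for the SPFH domain proteins, the family of stomatin, 0 of 34 loci in 8 genes, with 0 and 0. The synaptic vesicle fusion machinery, the partners of syntaxin 1A, gave 1 call in 76 loci of 13 of 14 genes (1.32%, GE2), with 6 loci in GE1 and 4 in GE2 at that p. It lay at Syt1, the calcium sensor of vesicle release, and was lower in GE2 by -1.11 (SE 0.39, adjusted p of 0.999999 in edgeR). Snap25 had no locus.

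Methylation at markers of cell types was summed over their loci as a description of the libraries. The group means ran from 152 to 163 CPM at neuron markers, from 172.1 to 182.4 CPM at oligodendrocyte markers, from 152.7 to 161 CPM at astrocyte markers and from 213 to 228 CPM at microglia markers. Beside the 0.626% (GE1) and 0.558% (GE2) of all loci, 2 of 55 loci at oligodendrocyte markers (3.64%) were called in GE1, both at Mbp and in opposite directions. At astrocyte markers 1 of 49 (2.04%) was called in GE1, lower at Gja1. At microglia markers 1 of 62 (1.61%) was called in GE1, higher at Csf1r, and 2 (3.23%) in GE2, both higher, at Csf1r and Tmem119. At neuron markers the Syt1 locus was the single call in 66 loci (1.52%, GE2). Each of these shares rests on 1 or 2 loci. The part of cell makeup in the listed loci was not tested.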

How the data were processed

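Methylated DNA was measured by MBD-seq in 48 libraries. According to the labels and methods, the authors mapped pairs of 50 bp reads with Bowtie2 2.1.0 to GRCm38, called and merged peaks, and deposited raw counts per merged peak from DiffBind 2.0.9, with the planned depth being 20 Mreads. Duplicate handling is not given in the sources used here. Even values made up 55.0 to 76.0% of nonzero counts, and intervals cover the spread between libraries rather than independent molecules.

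Gene bodies came from GENCODE M21 (GRCm38), with RefSeq GRCm38 positions beside them, and sequences from the RefSeq GRCm38 assembly. Counts of all 187695 loci were fitted with edgeR 4.0.16 in R 4.3.3 (TMM, trended dispersion, robust quasi-likelihood F-tests, 1 term per group, 46 libraries) and p-values adjusted after Benjamini and Hochberg over all features. The same was done for counts summed over the body and 10 kb on each side of 43177 genes, without the listed loci. Log2 levels used a pseudocount of 0.1 CPM. DESeq2 1.42.0 was an alternative, beside DESeq2 size factors, a mean count of at least 10, all 48 libraries, leaving out S18 to S26, the CpG slope as covariate, a replicate block, other flanks, and leaving out single libraries. The fits were tested on simulated data.

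Named were the listed loci, their neighbours, the locus nearest the gene start, the 3 other loci with the smallest p in the contrast of the gene, loci called in any of 8 contrasts, all loci of windows of at most 10, and the most similar loci. Members and lists were chosen with earlier results of these data known. Replicate numbers share no stated litter or batch, and deviations of same-numbered libraries had a median correlation of 0.01 over 110 pairs, so no block was used.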

Additional observations from a re-analysis of the deposited data

Results flagged for a closer look

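In 72 groups of 6 to 8 libraries, 12 quantities in 6 groups each, the highest or lowest library was compared with its neighbour by Dixon's test, which flags about 1 in 20 groups by chance, and 5 stood apart. Tph2+/+ MS replicate 7 was low over the other Fars2 loci at 32.4 CPM, with the next library at 38.4 CPM. Tph2+/+ MS replicate 6 was high at the listed Nsun2 locus at 6.83 CPM, next 4.73 CPM. Tph2+/+ MS replicate 5 was high at the listed Xkr4 locus at 1.89 CPM, next 1.31 CPM. Tph2+/- C replicate 8 was high at the listed Stom locus at 3.85 CPM, next 2.29 CPM. Tph2-/- C replicate 5 was high over the other Stom loci at 52.3 CPM, next 43.7 CPM. The upstream Stom locus at -6.92 kb from the gene start differed between Tph2+/- and Tph2+/+ mice in its response to MS by 0.65 on the log2 scale (GE1, called at the study's limits with edgeR, adjusted p of 0.99999).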

How the results depend on the processing

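The count of other loci called in the contrast of their gene was 0 under all 8 alternatives, and all 6 differences of the listed loci in the genotype the listing did not use kept their direction and missed the threshold under all alternatives tried. For the gene windows 3 directions turned, each close to 0 and far from the threshold. With 50 kb on each side Nsun2 gave -0.0021 and Stx1a 0.032, and with the gene body alone Stom gave -0.043 (gene bodies alone left A830073O21Rik without loci). The A830073O21Rik window went to -0.002 with 50 kb on each side and to -0.43 without S18 to S26, the Xkr4 window to -0.032 and the Stom window to 0.10 without S18 to S26, with adjusted p-values in edgeR of 0.995 or more. Removing the CpG slope turned the Xkr4 correlation of the listed locus with its window to 0.046. The prior of DESeq2 shrank all 6 listed values, to -0.77 at Fars2, -0.55 at Nsun2, 0.79 at Xkr4, 0.48 at A830073O21Rik, -0.53 at Stx1a and 0.64 at Stom. Leaving out 1 library at a time, the listed values stayed between -1.43 and -1.13 at Fars2, -0.81 and -0.58 at Nsun2, 1.19 and 1.44 at Xkr4, 0.55 and 0.69 at A830073O21Rik, -1.06 and -0.76 at Stx1a and 0.82 and 1.03 at Stom. Calls of other loci outside the interactions were less stable. For MS over genotypes the 2 calls became 4 with all 48 libraries and 0 either without S18 to S26 or with the CpG slope as covariate. Over all 187695 loci the calls for this contrast went from 6816 to 10861, 2374 and 2603 in the same settings, so the whole table moved too. Without S18 to S26, MS called 0 loci among Tph2+/+ mice, 3 among Tph2+/- mice and 1 among Tph2-/- mice, Tph2+/- against Tph2+/+ called 0, and Tph2-/- against Tph2+/+ called 1, as it did with the CpG slope as covariate. Over all loci MS then called 1833, 1592 and 2221 in these 3 genotypes, beside 2465, 1462 and 2769 in the main fit. Genotype called 1385 (Tph2+/-) and 1225 (Tph2-/-), beside 1025 and 1404 in the main fit. With the slope, Tph2-/- against Tph2+/+ called 1702 of all loci. A replicate block moved MS over genotypes to 4 calls and left the other counts of window loci as they were. Over all loci MS then called 6903, beside 6816 in the main fit. Same-numbered libraries correlated above 0.1 in 11 of 110 pairs. The median SE of an interaction over the 58 other loci was 0.31, which limits what a single locus can show.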
